A study of Mus musculus with 6 samples.

Results

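The promoters of 10 genes of the enteroendocrine lineage were examined in mouse colonic organoids. They are the transcription factors Neurog3, Neurod1, Pax4, Pax6, Isl1, Insm1, Nkx2-2 and Rfx6, and the granins Chga and Chgb. The genes were listed by name and not by a measured value, although earlier results of these data were known when the list was made. All 10 were found in the GENCODE annotation of GRCm38 and lie on autosomes. They are 10 of 54824 genes whose promoters were measured, of which 21779 are protein-coding. The organoids were cultures of colonic epithelial cells with the genotype C57BL/6, either untreated (wt) or treated with TNFα, an inflammatory cytokine, at 40 ng/ml for 3 weeks (wt+TNFα). Per the study's methods, the wt culture medium contained L-WRN conditioned medium, a source of Wnt, R-spondin and noggin, together with gastrin and inhibitors of the TGF-β receptor and p38. Each condition has 1 ChIP-seq library for H3K27me3, 1 for H3K4me3 and 1 input. There is no replicate, so no difference between conditions has an error or a p-value. Expression of the genes was not analysed here.

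Enteroendocrine cells are rare hormone-secreting cells scattered through the intestinal epithelium. Cells that escape Notch signalling become secretory progenitors, and those that switch on Neurog3 enter the enteroendocrine lineage. Neurog3 acts briefly at the top of a cascade that turns on Neurod1, Pax4, Insm1, Nkx2-2, Isl1, Rfx6 and Pax6, which together set the hormones that a cell makes. The granins are acidic proteins that are packed into dense-core secretory granules, and chromogranin A is the usual tissue marker of neuroendocrine cells. H3K27me3 is the histone mark of Polycomb repression, and H3K4me3 is the mark of active or poised transcription starts. A promoter with both marks is called bivalent, a state best known from stem cells, where it is found at developmental regulators.

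The promoter of a gene was the union of windows reaching 1000 bp to each side of all its annotated transcript starts. It was scored as bivalent when peaks of both marks overlapped it by at least 1 bp, as repressed with H3K27me3 alone, as active with H3K4me3 alone and as unmarked with neither. The covered percent is the share of the promoter's bases under peaks, and a difference of at least 10 points between the conditions was counted. In a bulk sample, 2 marks at a promoter in the same cells cannot be told apart from each mark in other cells, nor can fewer cells of a type be told apart from less of a mark per cell.

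The lists differ in extent between the conditions. The H3K27me3 peaks covered 101 Mb of the wt autosomes against 228 Mb with TNFα, and on chromosome X 0.597 Mb against 74.7 Mb. The H3K4me3 peaks covered 17.8 Mb and 19.5 Mb of the autosomes, and 3 peaks in wt and 0 in wt+TNFα lay on chromosome Y. A difference between the cultures other than TNFα cannot be told apart from TNFα here. Of 10 markers of colonic epithelium, 8 had an active promoter in wt and 7 in wt+TNFα, with Krt20, a differentiation keratin, going from active to unmarked. The wt H3K4me3 peak of Krt20 was weak, with a fold enrichment of 6.21 and a −log10 q of 14.7. The medians of that list were 24.6 and 161. Lgr5, a stem cell marker, and Muc2, the goblet cell mucin, were repressed in both, except that Muc2 was unmarked in wt with H3K27me3 peaks limited to a −log10 q of at least 2. The 4 immune, 4 stromal or vessel and 4 enteric neuron or glia markers had no promoter H3K4me3 in either condition. Pecam1, an endothelial marker among them, went from unmarked to repressed, with H3K27me3 over 0% and 52.7% of its promoter, and was unmarked in both under the same limit. Of 4 pancreas markers, 3 had no H3K4me3, and Pdx1, a factor of pancreas and duodenum, went from active to bivalent. At Pdx1 H3K27me3 went from 0% to 100% and H3K4me3 from 54.8% to 41.4%.

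The sequences around 4 starts are printed because they carry the contrasts described below. They are the 300 bp from 250 bp before to 50 bp after the RefSeq start on GRCm38.p6, read in the direction of transcription, with CpG dinucleotides, the usual base composition of Polycomb targets and of H3K4me3 starts, in capitals. Neurog3 (chr10:62132840-62133139, plus strand) stands for the promoters fully under H3K27me3. Isl1 (chr13:116309639-116309938, minus strand) is the bivalent promoter whose H3K4me3 peak widened. Chga (chr12:102554691-102554990, plus strand) is the granin whose H3K27me3 peak widened most. The Rfx6 window (chr10:51685268-51685567, plus strand) lies at an inner start of the gene that no peak of any list touched.
Neurog3: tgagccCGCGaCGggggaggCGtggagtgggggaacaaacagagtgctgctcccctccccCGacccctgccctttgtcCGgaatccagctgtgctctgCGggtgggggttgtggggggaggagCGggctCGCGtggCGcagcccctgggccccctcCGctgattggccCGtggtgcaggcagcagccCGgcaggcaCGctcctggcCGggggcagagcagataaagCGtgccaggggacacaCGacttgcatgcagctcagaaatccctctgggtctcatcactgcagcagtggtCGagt
Isl1: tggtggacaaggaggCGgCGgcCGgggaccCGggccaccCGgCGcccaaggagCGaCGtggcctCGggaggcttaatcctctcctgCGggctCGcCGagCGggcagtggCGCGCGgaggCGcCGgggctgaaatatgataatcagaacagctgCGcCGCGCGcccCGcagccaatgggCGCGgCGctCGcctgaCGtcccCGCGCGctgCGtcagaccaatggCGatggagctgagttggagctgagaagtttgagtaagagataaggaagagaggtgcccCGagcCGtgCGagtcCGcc
Chga: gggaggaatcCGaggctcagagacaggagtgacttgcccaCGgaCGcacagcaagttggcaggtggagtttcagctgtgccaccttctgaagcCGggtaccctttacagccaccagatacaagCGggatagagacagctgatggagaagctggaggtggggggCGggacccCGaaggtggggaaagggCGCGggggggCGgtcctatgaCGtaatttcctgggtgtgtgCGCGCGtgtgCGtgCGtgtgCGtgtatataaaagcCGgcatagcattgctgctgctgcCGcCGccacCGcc
Rfx6: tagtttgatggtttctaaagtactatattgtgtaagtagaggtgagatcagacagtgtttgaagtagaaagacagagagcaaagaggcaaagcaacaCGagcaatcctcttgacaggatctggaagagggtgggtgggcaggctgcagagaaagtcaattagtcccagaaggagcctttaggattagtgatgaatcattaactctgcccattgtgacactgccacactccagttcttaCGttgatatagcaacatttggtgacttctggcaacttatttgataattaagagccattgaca

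RefSeq windows were found for 8 of the 10 genes, 9 windows in all with 2 for Pax6, and not for Pax4 and Insm1. In 8 of the 9 windows the CpG observed over expected ratio was above 0.384, the median of 32841 promoter windows. The Isl1 window held 37 CpG with a ratio of 1.05, above 96.5% of all windows, and it lay wholly under peaks of both marks in both conditions. The Neurog3 window held 19 CpG (ratio 0.547), the Chga window 21 (0.764) and the Chgb window 31 (0.796), and all 3 lay wholly under H3K27me3 and under no H3K4me3 peak in both conditions. The inner Rfx6 window held 2 CpG (ratio 0.156), above 21.9% of all windows. The window with the lowest ratio was thus the one without a mark, and the window with the highest ratio the one with both. A Pax6 window with a ratio of 0.998, above 93.9% of all windows, and the Neurod1 window (0.837) held no H3K4me3. Both lay wholly under H3K27me3 in both conditions. Insm1, the other bivalent gene, has no window, so the ratio did not sort the marks across the 10 genes. The ratio is a description of the reference sequence, and its part in the marks was not tested.

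**Figure D1:**
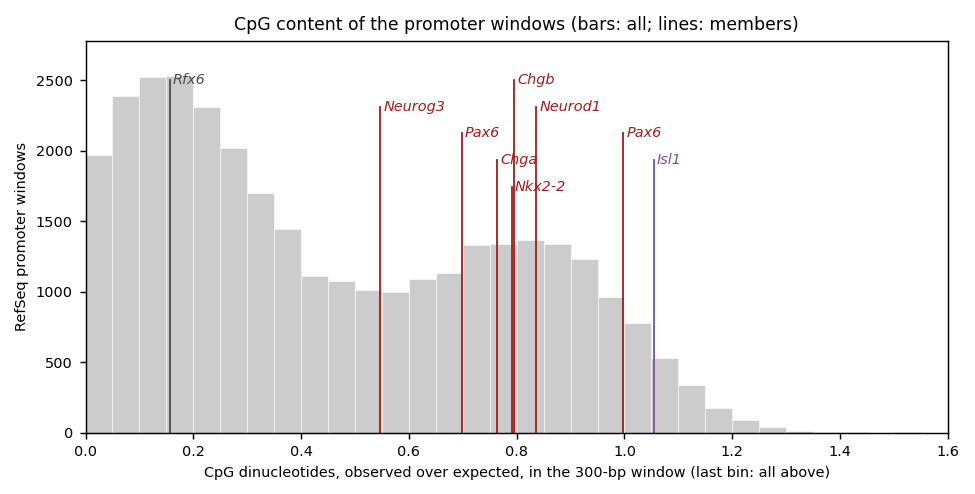
Histogram of the CpG observed over expected ratio (x axis) of 32841 RefSeq promoter windows (y axis, number of windows). Lines mark the 9 windows of 8 genes, in red where the promoter was repressed, in purple for the bivalent Isl1 (1.05) and in grey for the unmarked inner start of Rfx6 (0.156), and 8 of the 9 lie right of the median of 0.384.

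Short motifs were searched on both strands of the same windows. The E-box CANNTG, which binds basic helix-loop-helix factors such as NEUROG3 and NEUROD1, was found in 8 of 9 windows, against 72.3% of all promoter windows. TGACGT, the core of the cAMP response element, was found in 5 of 9, in Isl1, Chga, Chgb and both windows of Pax6, against 7.52% of all. This motif holds a CpG, and 8 of the 9 windows were above the median CpG ratio of all windows. The background was not matched for CpG, and Pax6 enters with each of its windows. A TATAAA was found in the Chga window alone, against 13.6% of all. Of 2 pieces of RE1, the site of the neuronal repressor REST, CAGCACC was found in the Chgb window alone (7.14% of all) and GGACAG in 0 of 9 windows (22.2% of all). TGACGT and its reverse complement can overlap in a palindrome, so windows and not sites were counted, and a match is a run of letters and not a bound site.

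All 10 genes had a promoter H3K27me3 peak in both conditions, while 21.8% of protein-coding genes had one in wt and 29.7% in wt+TNFα. Over all annotated genes the shares were 14.4% and 23.4%. The whole promoter was covered in 7 of 10 genes in wt, against 6.01% of protein-coding genes, and in 8 of 10 in wt+TNFα, against 11.3%. H3K4me3 was called at 2 of 10 promoters in each condition, Isl1 and Insm1, against 50.8% of protein-coding genes in wt and 51.6% in wt+TNFα. The shares among the 10 were above the background for the repressive mark and below it for the active mark. None of the 10 was active or unmarked with the lists as deposited.

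By state, 8 of 10 were repressed in wt and the same 8 in wt+TNFα, namely Neurog3, Neurod1, Pax4, Pax6, Nkx2-2, Rfx6, Chga and Chgb. Of protein-coding genes 16.6% were repressed in wt, 22% in wt+TNFα and 15.2% in both. Isl1 and Insm1 were bivalent in both conditions, 2 of 10 against 4.17% of protein-coding genes. Bivalent promoters made up 5.21% of protein-coding genes in wt and 7.69% in wt+TNFα, and 2.41% and 3.53% of all genes. Over autosomal protein-coding genes these shares were 5.40% and 6.72%, and 5.40% and 2.62% with equal covered length. With the promoters and lists as first defined, no gene of the 10 changed state between the conditions. Pax4 did, from unmarked to repressed, with H3K27me3 peaks at a −log10 q of at least 2, and Insm1, from bivalent to repressed, with promoters upstream alone, equal numbers of peaks or equal covered length. Over all protein-coding genes, 91.7% of those repressed and 80% of those bivalent in wt were in the same state in wt+TNFα.

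**Figure D2:**
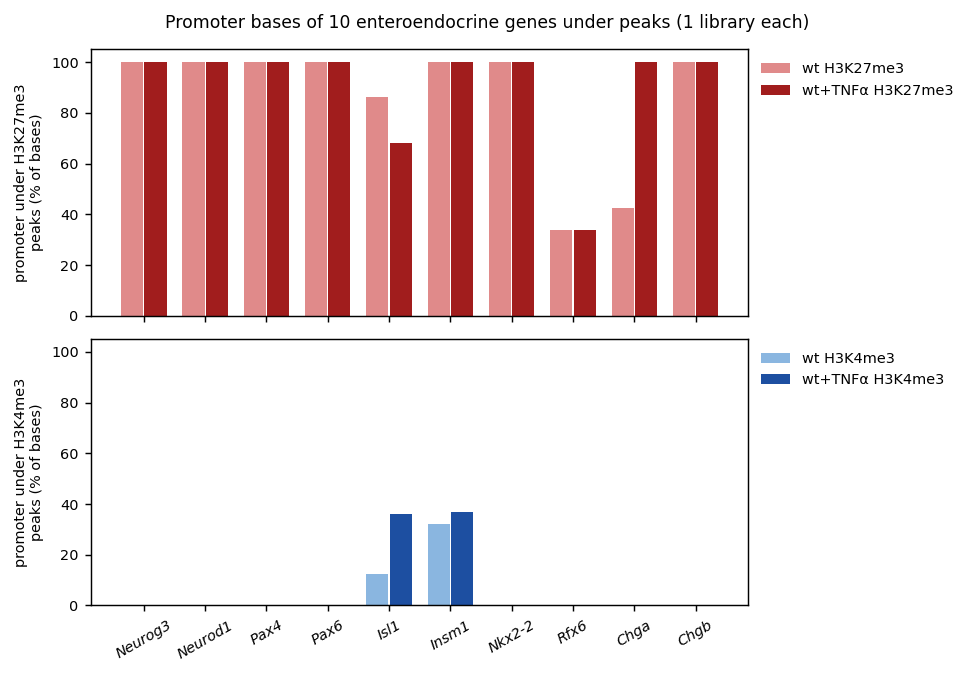
Bars give the percent of promoter bases (y axis, from 0) under H3K27me3 peaks (top) and H3K4me3 peaks (bottom) for each gene (x axis) in wt and wt+TNFα, 1 library each and so no error bars. Chga rises from 42.4% to 100% and Isl1 falls from 86.1% to 68.1% for H3K27me3, and Isl1 (12.5% and 36.2%) and Insm1 (32.1% and 36.9%) alone carry H3K4me3.

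Neurog3 (chr10:62133090-62134763, plus strand), the factor that commits a cell to the lineage, lay wholly under H3K27me3 in both conditions, promoter and gene body. Its peak was 10673 bp wide in wt, with a fold enrichment over the local background of 2.98, and 17161 bp wide in wt+TNFα with 2.64. The wider peak reached 12776 bp upstream of the start, against 6607 bp in wt, and 4384 bp downstream, against 4065 bp. The added bases thus lay almost wholly upstream, and both peaks also touched a promoter of the neighbouring gene Fam241b. The nearest H3K4me3 peak lay 20.9 kb from the edge of the Neurog3 promoter window, also at Fam241b.

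Neurod1 (chr2:79452521-79456751, minus strand), a basic helix-loop-helix factor that Neurog3 turns on, had 100% of its promoter under H3K27me3 in both conditions. The peak was 6746 bp wide in wt, at a fold enrichment of 3.14, and 13195 bp in wt+TNFα, at 4.0. In wt it covered 66.1% of the gene and in wt+TNFα 100%, since 1436 bp of exon were added at the 3′ side. The fold enrichment ranked above 95.1% of the peaks in the wt list and above 99.3% of those in the wt+TNFα list. Both peaks also touched a promoter of Cerkl.

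In wt the paired-box factors Pax4 and Pax6 had the lowest and the highest H3K27me3 fold enrichment of the 10. Pax4 (chr6:28442334-28449353, minus strand), which favours serotonin- and somatostatin-type fates in endocrine progenitors, had the weakest wt peak of the 10. That peak was 7602 bp wide with a fold enrichment of 2.2 and a −log10 q of 1.03, above 67.6% of its list. In wt+TNFα the Pax4 peak was 14284 bp wide with 2.53 and a −log10 q of 4.09, above 94.6% of its list. With H3K27me3 peaks limited to a −log10 q of at least 2, the wt promoter of Pax4 was unmarked. Pax6 (chr2:105668900-105697364, plus strand), which acts in hormone gene transcription, had 24 starts in 5 promoter windows, and every one lay under a single H3K27me3 peak. That peak was 46286 bp wide in wt (fold enrichment 4.24) and 48713 bp in wt+TNFα (5.41), above 99.7% and 99.97% of its list.

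Nkx2-2 (chr2:147177546-147194243, minus strand), a homeobox factor for several hormone lineages, was wholly under H3K27me3 in both conditions, promoter and gene. Its peak was 24811 bp wide in wt (fold enrichment 3.68) and 28216 bp in wt+TNFα (4.50), and 3298 bp of the added bases lay past the 3′ end of the gene. Rfx6 (chr10:51677756-51730432, plus strand), a winged-helix factor needed for endocrine differentiation, had the narrowest peak in wt+TNFα. It was 2434 bp wide in wt (3.16) and 2633 bp in wt+TNFα (2.99), around the first start, where the window of 2055 bp was fully covered. The other 2 windows of Rfx6, with the inner start whose sequence is printed above, were at 0% for both marks in both conditions. The 3 windows together were therefore at 33.9% in both, and the gene body at 2.17% in wt and 2.21% in wt+TNFα. The nearest H3K4me3 peak lay 538 kb from the edge of the closest Rfx6 promoter window.

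Isl1 (chr13:116298281-116309689, minus strand), a LIM-homeobox factor of several hormone cell types, was bivalent and changed for both marks. H3K27me3 covered 86.1% of its promoter in wt and 68.1% in wt+TNFα. H3K4me3 covered 12.5% and then 36.2%. It was the only gene of the 10 with H3K27me3 lower by at least 10 points, where the background was 2.12% of protein-coding genes and 1.7% of all genes. Over autosomal protein-coding genes the share was 2.22%, and 5.71% with equal covered length in both lists of a mark. It was also the only one with H3K4me3 higher by at least 10 points (background 3.94%), and 0 of 10 were lower (background 1.08%). On the autosomes these shares were 4.0% and 1.06%, and 2.57% and 3.72% with equal covered length, where Insm1 was lower. Both together were found in 1 of 10, and in 113 or 0.519% of protein-coding genes. The H3K4me3 difference of 23.7 points was above that of 99.2% of protein-coding genes. Of these genes, 50.8% had promoter H3K4me3 in wt and 51.6% in wt+TNFα, and those without it in both conditions enter the rank at 0.

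At Isl1 the gain of H3K4me3 and the loss of H3K27me3 lay at different starts. The window of the main start, with 2 coding transcripts, was wholly under H3K27me3 in both conditions, while its H3K4me3 rose from 34.5% to 100%. The H3K4me3 peak widened from 782 bp to 2691 bp and its summit stayed upstream of the start, at −313 bp in wt and −322 bp in wt+TNFα. Its fold enrichment was 5.81 in wt, above 3.42% of the wt list, and 20.1 in wt+TNFα, above 33.8% of that list. Per the study's reporting summary the wt+TNFα H3K4me3 library was sequenced more deeply than the wt one, and the part of depth in the wider peak was not tested. With equal numbers of peaks and with equal covered length in both H3K4me3 lists, the difference was 23.7 points. With only peaks over the median −log10 q of each list it was 0 points, as neither Isl1 peak of H3K4me3 was kept and Isl1 was repressed in both conditions. Under the other alternatives it ran from 11.7 to 65.5 points. Promoter bases under both marks went from 782 bp to 2268 bp. H3K27me3 was lost instead at the window of a non-coding start inside the gene, from 56.4% to 0%, and 1630 of the 1759 bp lost on that side were intronic. With protein-coding transcripts alone, the H3K27me3 difference of Isl1 was 0 points and the H3K4me3 difference 65.5 points. The Isl1 peak of H3K27me3 was the only one of the 10 that was narrower in wt+TNFα, 12532 bp against 9364 bp.

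Insm1 (chr2:146221921-146225020, plus strand), a zinc-finger repressor that acts early in the cascade, was the other bivalent gene. Its promoter was wholly under H3K27me3 in both conditions, with peaks of 26358 bp in wt (fold enrichment 3.86) and 54127 bp in wt+TNFα (3.34), which also touched a promoter of Cfap61. The wider peak joined wt peaks that had stood apart, and reached 41224 bp upstream of the start against 19022 bp in wt. H3K4me3 covered 32.1% and 36.9% of the promoter, a difference of 4.80 points, which turned to −34.2 points with promoters of 500 bp on each side. The wt H3K4me3 peak was 642 bp wide, began 79 bp upstream of the start and had the same fold enrichment of 5.81 and −log10 q of 12.9 as that of Isl1. In wt+TNFα the peak was 779 bp wide, began 263 bp downstream of the start and had a fold enrichment of 3.26. No peak of that list had a lower fold enrichment or −log10 q, so the wt+TNFα bivalent call of Insm1 rests on the weakest peak of its list. With equal numbers of peaks in both H3K4me3 lists, Insm1 was repressed in wt+TNFα.

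**Figure D3:**
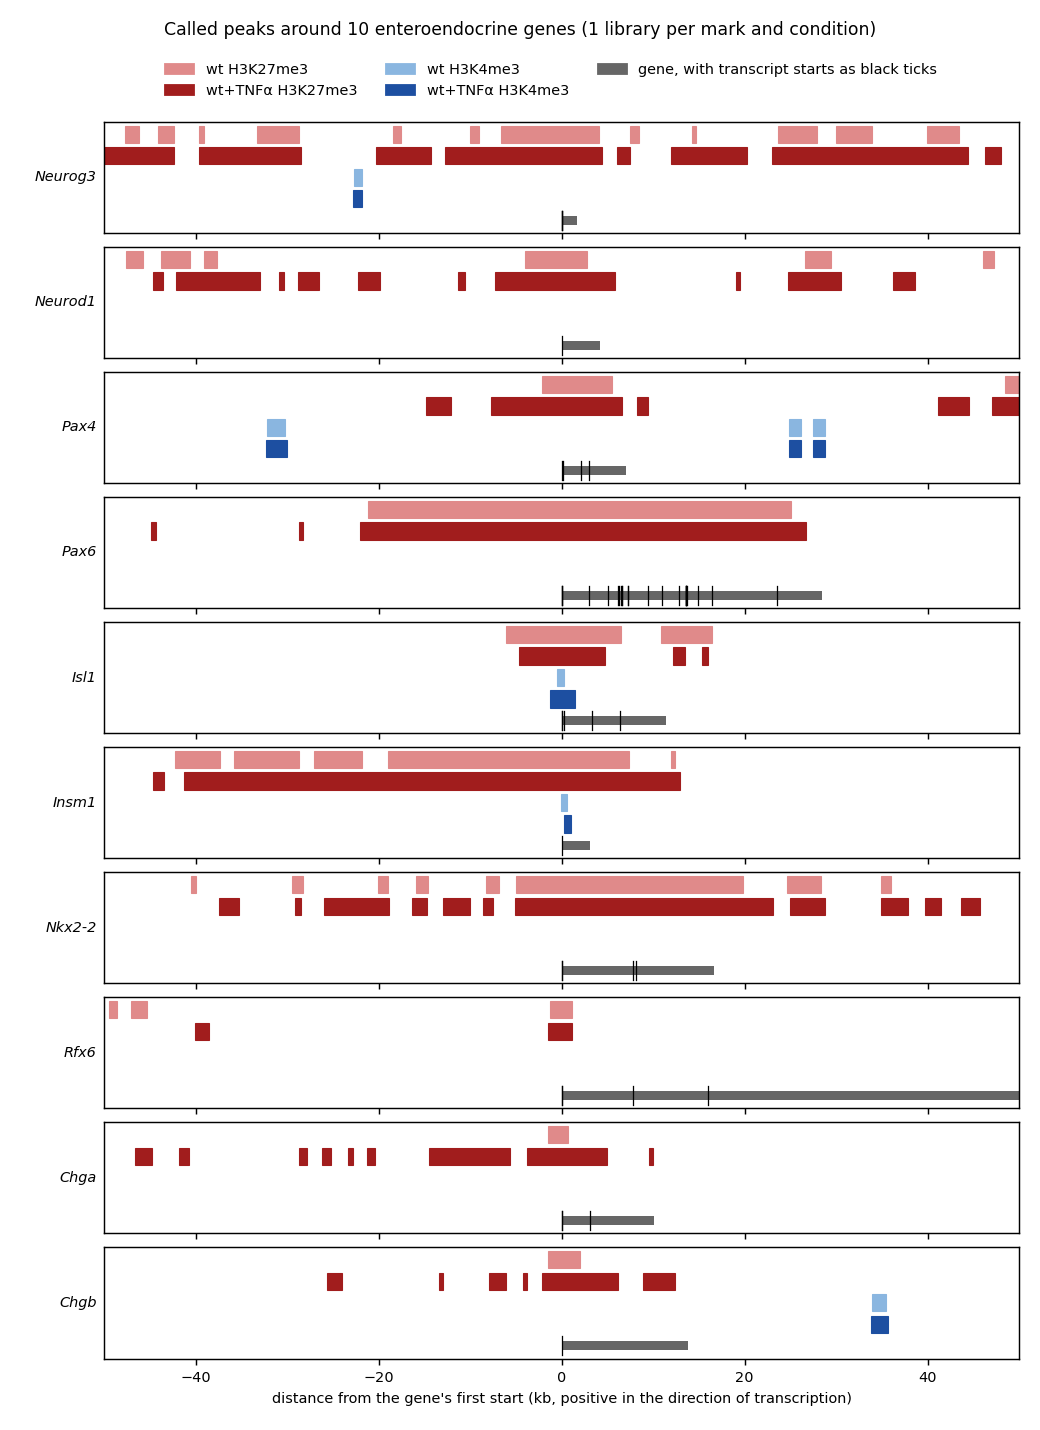
Called peaks of each list within 50 kb of the first start of each gene (x axis, distance in kb in the direction of transcription), with the gene in grey and its transcript starts as ticks. H3K27me3 (red) covers the first start of all 10 genes in both conditions, and H3K4me3 (blue) lies at a start only in Isl1, where it widens from 782 bp to 2691 bp, and beside or over the start of Insm1.

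The granins gained H3K27me3 bases along their gene bodies, which was not particular to them. The covered share of the gene also rose for Neurod1, for Pax4 (77.8% to 93.9%) and for Pax6 (88.2% to 93.7%), and fell for Isl1 (61.4% to 41.3%). Autosomal H3K27me3 cover was 2.25 times as large in wt+TNFα, and no gene-body background is given here. Chga (chr12:102554969-102565028, plus strand), which encodes chromogranin A, went from 42.4% to 100% of promoter bases under H3K27me3, a difference of 57.6 points. It was the 1 gene of 10 with a rise of at least 10 points, where the background was 15.9% of protein-coding genes and 14.4% of all genes. Over autosomal protein-coding genes the share was 13.3%, and 5.26% with equal covered length. The rise was above that of 94.9% of protein-coding genes, most of which had no promoter H3K27me3 in either condition and so a difference of 0. The window of the first start rose from 84.4% to 100%, and that of a non-coding start inside the gene from 0% to 100%. With protein-coding transcripts alone, the difference was 14.9 points. The peak was 2224 bp wide in wt (fold enrichment 2.52) and 8710 bp in wt+TNFα (2.55), 3.92 times as wide, and over the whole gene the covered share went from 6.99% to 53.4%.

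Chgb (chr2:132781278-132795079, plus strand), which encodes chromogranin B, had 100% of its promoter under H3K27me3 in both conditions. Its peak was 3477 bp wide in wt (fold enrichment 2.65) and 8290 bp in wt+TNFα (2.47), 2.38 times as wide. The added bases included 3995 bp of intron downstream of the start, and the covered share of the gene went from 14.3% to 69.7%. The H3K4me3 peak nearest to the promoter windows of either granin lay 32.8 kb from the edge of the Chgb window, in wt+TNFα.

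Over the 10 genes, the H3K27me3 peak at the promoter was wider in wt+TNFα for 9, with both edges further out in the same 9. The median ratio of widths was 1.74, from 0.747 for Isl1 to 3.92 for Chga. The background moved the same way: of 3206 autosomal protein-coding genes with 1 promoter H3K27me3 peak in each condition, 85.1% had a wider one in wt+TNFα, with a median ratio of 1.60. At least a 2 times wider peak was found for 3 of 10 genes, Insm1, Chga and Chgb, against 37.4% of that background. The widening of the 10 was thus close to that of other H3K27me3 promoters, and the narrower peak of Isl1 went against the direction of most. Among 908 protein-coding genes bivalent in both conditions, 10.4% had H3K27me3 lower by at least 10 points and 32.7% higher, and among 3315 repressed in both, 3.89% and 41.0%.

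Within their own lists the peaks of the 10 genes ranked high, as did most promoter peaks. The fold enrichment was above that of 75% of the list for 9 of 10 genes in wt, all but Pax4, and for 10 of 10 in wt+TNFα. The shares of the 3206 background genes were 75.9% and 88.4%. The median rank of the 10 was above 94.4% of the wt list and 96.2% of the wt+TNFα list, and that of the background above 91.4% and 96.0%. The rank was higher in wt+TNFα for 8 of 10, all but Isl1 and Insm1, and for 82.3% of the background, so these shares were close. The lists hold 30594 and 60540 peaks, and a rank in the longer list is not on the same scale as one in the shorter.

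**Figure D4:**
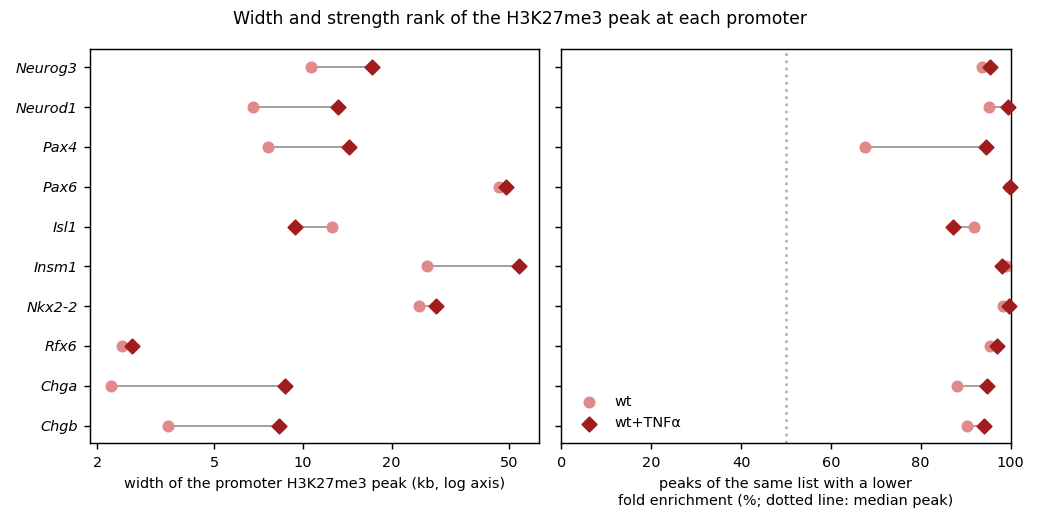
Left, width in kb (log x axis) of the promoter H3K27me3 peak of each gene in wt (circles) and wt+TNFα (diamonds). Right, percent of peaks of the same list with a lower fold enrichment (x axis). Each point is 1 peak of 1 library, Isl1 alone is narrower in wt+TNFα (9364 bp against 12532 bp), and all points lie right of the median peak, with Pax4 in wt lowest at 67.6%.

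The other enteroendocrine genes were read from lists of fixed names. Of 10 other enteroendocrine transcription factors, 2 were bivalent, 4 repressed and 4 active in wt, and 3, 4 and 3 in wt+TNFα. The median H3K27me3 covered percent of this list was 25.5% in wt and 43.4% in wt+TNFα, against 100% in both for the 10 genes and 0% in both for all protein-coding genes. Lmx1a, Prox1 and Runx1t1 were repressed, and Mnx1 and Etv1 bivalent, in both conditions. Foxa1, Foxa2 and Sox4, which also act in other epithelial cells, were active in both, with H3K4me3 over 100%, 73.8% and 55.3% of the promoter in wt. Hhex, a homeobox factor of somatostatin-producing cells, was active in wt and bivalent in wt+TNFα, with H3K27me3 over 0% and 10.3%. With H3K27me3 peaks at a −log10 q of at least 2, Hhex was active in both, and Etv1 went from active to bivalent. St18 lies before the first peak of any list on its chromosome and was not analysed here.

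The products of the mature cells were repressed or unmarked in wt. Of 11 genes for hormones and amine synthesis, 6 were repressed and 5 unmarked in wt, and in wt+TNFα 7 were repressed, 1 bivalent and 3 unmarked. Pyy, Cck and Insl5, hormones of colonic and upper intestinal cells, had 100% of their promoters under H3K27me3 in both conditions. Nts and Gip went from unmarked to repressed, with 0% and 57.6% for Nts and 0% and 6.00% for Gip, and both were unmarked in both conditions under the same limit on −log10 q. Tac1, the substance P precursor of serotonin-producing cells, moved in the directions of Isl1, as H3K27me3 went from 61.6% to 34.7% and H3K4me3 from 0% to 24.6%, and its states were the same under that limit. Of 12 other granule genes, 9 were repressed in wt and 10 in wt+TNFα, with Scg3 going from 0% to 54.5%, and none had H3K4me3. Under the limit 7 and 9 were repressed, Scg3 was unmarked in both, and Pcsk1 and Cpe went from unmarked to repressed. Chga and Chgb were thus in the same state as most granule genes, among them Vgf, Syt13 and the convertase gene Pcsk2.

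The Notch genes and Atoh1, which act upstream of Neurog3, carried H3K4me3, whereas Neurog3 did not. Of 8 Notch pathway genes, 7 were active and 1 bivalent in each condition, with Dll1 going from bivalent to active and Dll4 from active to bivalent. With H3K27me3 peaks at a −log10 q of at least 2, all 8 were active in both. Hes1, the Notch target that represses Neurog3, had H3K4me3 over 100% of its promoter in both. Of 11 other intestinal fate regulators, 6 were active, 4 repressed and 1 bivalent in both conditions. The bivalent one was Atoh1, the secretory fate factor upstream of Neurog3, where H3K27me3 went from 66.9% to 44.2% with TNFα and H3K4me3 from 77.6% to 100%. The paralogs of the members were mostly in the state of Pax4, Pax6 and Nkx2-2. Of 7 other Pax genes 6 were repressed and Pax8 bivalent, and all 6 other Nkx2 genes were repressed, in both conditions.

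**Figure D5:**
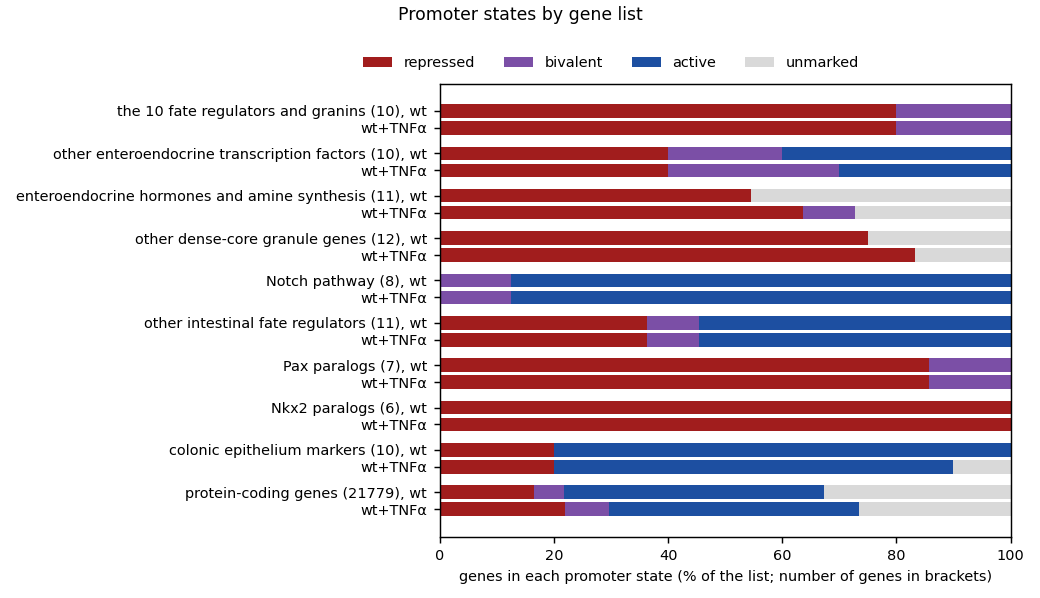
Share of genes (x axis, percent of each list) in each promoter state in wt and wt+TNFα, for the 10 genes, 8 further lists and all 21779 protein-coding genes. The 10 genes are 8 repressed and 2 bivalent in both conditions, the Notch list is 7 of 8 active, and the protein-coding background is 16.6% repressed and 5.21% bivalent in wt.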

How the data were processed

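ChIP-seq of H3K27me3 and H3K4me3 was done on wt and wt+TNFα colonic organoids, with 1 library for each mark and condition and 1 input for each condition. According to the methods, the authors used fastp for trimming, bwa-mem (BWA 2.2 in the submitters' processing notes) for alignment to GRCm38/mm10 and SAMtools 1.11 for removal of duplicates. After a blacklist filter, MACS2 2.1.0 called peaks against the input. The reporting summary names another MACS2 version. In the 4 deposited peak lists, fold enrichment is a ratio of ChIP signal to local background, and significance is given by the authors as the −log10 of p and q. The reporting summary names a −log10 q of 2 as the H3K27me3 threshold. The lowest value in the deposited H3K27me3 lists was 0.302 in wt and 0.747 in wt+TNFα, and all listed peaks were used unless stated. A spike-in is mentioned in the names of all lists but that of wt+TNFα H3K27me3. The lists hold no read depth, so the precision of a peak is unknown. By the reporting summary, the H3K4me3 and input libraries of wt+TNFα had more reads than those of wt, and the H3K27me3 libraries nearly equal numbers.

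Peaks were merged within each list and set against the GENCODE annotation of GRCm38 (55413 gene records, 141730 transcripts on the chromosomes used). Genes before the first peak of any list on their chromosome, or on a chromosome with no peak, were left out (480 genes, 132 protein-coding). Samples were grouped by the labels, and the inputs were not analysed here. No test was run, as there is 1 library per group, and conditions were compared by covered percent, state and rank within a list. All 10 members are named, and of the other lists any gene that changed state, with examples by fold enrichment. An item of 1 list is not reported here. The members and the other lists were chosen with earlier results of these data known. Scoring was tested on 4 simulated lists, where the covered bases and states of 100% of 800 genes were recovered. Promoter sequences came from RefSeq windows of GRCm38.p6. Python 3.11.15, numpy 2.4.6 and matplotlib 3.10.9 were used. The 11 alternatives were promoters of 500, 2000 or 5000 bp on each side, 1000 bp upstream alone, 1 start per gene, protein-coding transcripts, an overlap of 200 bp, peaks above the median −log10 q, equal numbers of peaks, H3K27me3 peaks at a −log10 q of 2 or more, and equal covered length on the autosomes. The limit of −log10 q was applied to the other lists after seeing the data.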

Additional observations from a re-analysis of the deposited data

How the results depend on the processing

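Under the 11 alternatives the count of members with a promoter H3K27me3 peak was within 1.5 times of the reported count in both conditions, and 7 of the 10 genes (Neurog3, Neurod1, Pax6, Nkx2-2, Rfx6, Chga and Chgb) had the same state in both conditions under each. Pax4 was unmarked in wt with −log10 q of at least 2. Genes with H3K4me3, and bivalent genes, numbered 0 in wt and 0 in wt+TNFα when only peaks over the median −log10 q of each list were used, since both H3K4me3 peaks rank low. In wt+TNFα they numbered 1 with promoters upstream alone, with equal numbers of peaks and with equal covered length, where Insm1 was repressed. The count with H3K27me3 higher by 10 points was 2 with 2000 bp on each side, 4 with 5000 bp and 2 with −log10 q of at least 2, and the count lower was 0 with 1 start per gene and with protein-coding transcripts. The count with H3K4me3 higher was 0 with peaks above the median −log10 q, and the count lower was 1 with 500 bp on each side, with equal numbers of peaks and with equal covered length. Of the 20 differences of single members (10 genes, 2 marks), 16 were 0 as reported, at promoters fully covered or without a peak except for H3K27me3 at Rfx6. Some of these moved for H3K27me3. Pax4 was at 100 points with −log10 q of at least 2. With 5000 bp on each side, Pax4 was at 30.7 points, Neurod1 at 32.5 and Chgb at 41.1, and with 2000 bp Chgb was at 13.1. The rest of the 16 moved by at most 4.73 points. Of the other 4, the one that reversed was the H3K4me3 difference of Insm1 (4.80 points as reported), at −34.2 points with 500 bp on each side, −7.99 with promoters upstream alone, and −32.1 both with equal numbers of peaks and with equal covered length. The H3K27me3 rise of Chga ran from 14.9 to 66.7 points, the H3K27me3 difference of Isl1 from −30.6 to 0 and its H3K4me3 difference from 0 to 65.5. On autosomes, 13.3% of protein-coding genes had H3K27me3 higher and 2.22% lower, against 5.26% and 5.71% with equal covered length, so the background direction depends on how much of each list is used. No paired analysis was possible because each group has 1 library. The lists give no depth, so an uncalled mark may lie under the callers' thresholds.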
